A study of Mus musculus with 9 samples.

Results

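Collagens are the structural proteins of connective tissue, and each collagen molecule is built from 3 alpha chains that wind around one another in a triple helix. The genes described here encode these chains. They were taken as every row of the expression table whose symbol reads Col, a type number, the letter a and a chain number with nothing after it, which gave 43 genes among 37801 usable rows. By protein class, 11 encode fibrillar chains, 8 encode basement membrane chains (type IV and the basement membrane zone collagens XV and XVIII) and 24 encode the other types.
Transcripts were measured in 9 mouse libraries, 3 from each of 3 groups. The Tyr-NrasQ61K MHCII-KO group (MHCII-KO below) carried the oncogene NrasQ61K and a Cre-dependent loss of MHC class II, on a crossed FVB/NJ background. The Tyr-NrasQ61K group carried the oncogene without Cre, with MHC class II intact, on the same crossed background, and the wild-type (WT) group had neither change, on FVB/NJ. In the transgenic mice the tyrosinase promoter, which is active in pigment cells, drives NrasQ61K. Per the study, the RNA came from lymph nodes that receive melanocytes from the skin, whereas the sample labels name nevus melanocytes. In every library the summed FPKM of 8 lymphocyte genes (265 to 575) was far above that of 8 melanocyte genes (3.89 to 17.4). The promoter of the Cre, the age of the mice and whether a library was 1 animal were not given in the sources used here, so p-values measure the spread between libraries, which may be technical. Values are FPKM, fragments counted per transcript length and sequencing depth. Levels of different genes are thus adjusted for length but not for base composition.

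In a lymph node, fibrillar collagens lie in the capsule, in the trabeculae and in the reticular fibers, a mesh that reticular fibroblasts wrap and through which lymph and small antigens travel. Basement membrane collagens sheathe blood vessels, lymphatic vessels and the reticular fibers themselves. Type VI collagen forms beaded filaments between these matrices, and several of the other collagens decorate the fibrils or span the membranes of cells.

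Some libraries stood apart. MHCII-KO replicate 2 and Tyr-NrasQ61K replicate 2 scored 78.6 and 101.9 on the first principal component (32.1% of the variance), beyond the other 7 libraries (-74.1 to 21.8). Some of the results that rest on them are given with and without them. On the second component (14.6% of the variance) Tyr-NrasQ61K replicate 3 scored 99.95, beyond the other 8 libraries (-35.0 to 12.9). WT replicate 2 was low over the whole family, with 109.5 FPKM summed over the 43 collagens against 207.8 and 169.3 in the other WT libraries. FPKM do not give read numbers. Depth relative to WT replicate 1, judged by the commonest ratio between low values of single-exon genes, was 1.33 to 1.68 for 5 libraries and was not recovered for the remaining 3, the pair that stood apart among them. The median log2 fold change over all 16587 genes tested in both NrasQ61K groups against WT was -0.16, and each collagen value can be read against that shift, which was 0.03 with libraries scaled by their median ratio.

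Transcripts of type I, III and IV collagen were the most abundant of the family. Averaged over the 9 libraries, Col1a2 stood at 37.7 FPKM, Col3a1 at 24.9, Col4a1 at 20.9, Col1a1 at 17.0, Col4a2 at 16.3 and Col6a1 at 15.6. Of the 43 genes, 22 reached 1 FPKM in 3 or more of the 9 libraries and were tested: 8 fibrillar, 4 basement membrane and 10 other. The plot of all tested genes shows the spread of these levels.

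**Figure D1:**
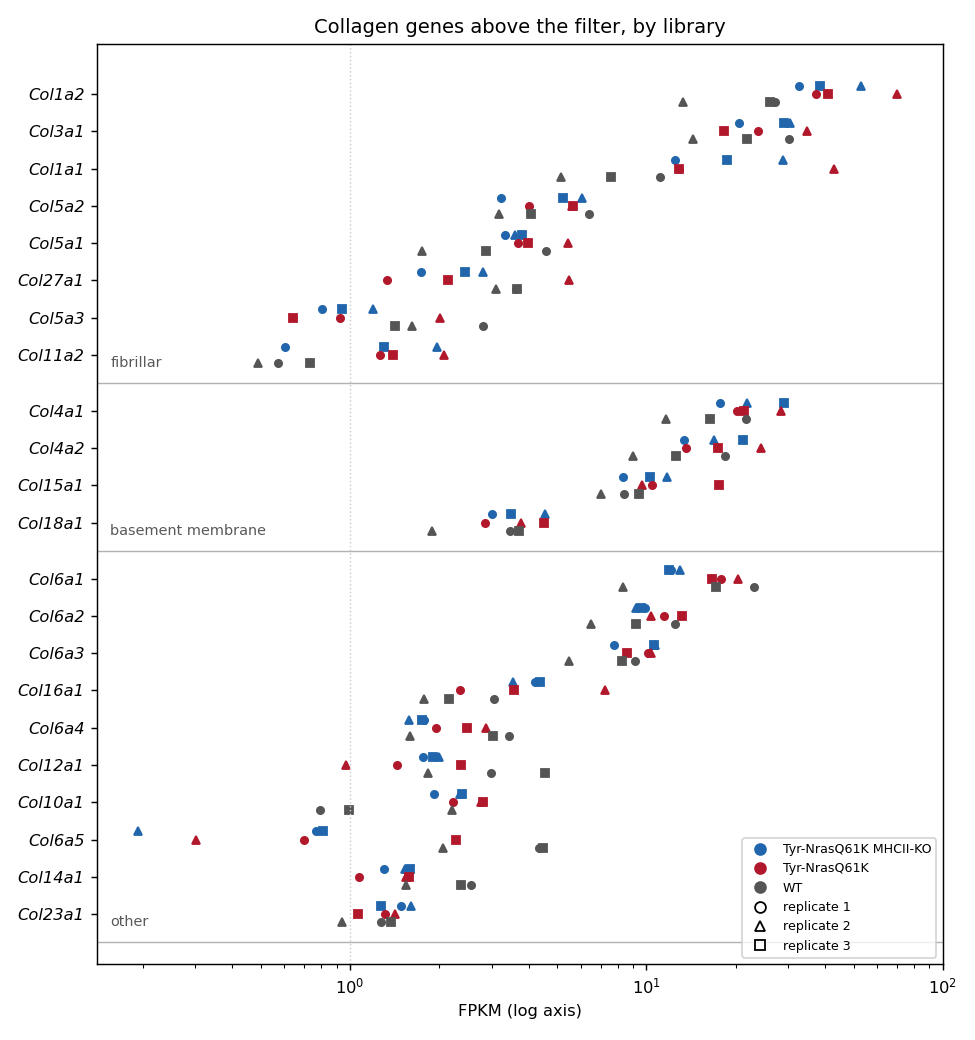
Each row is 1 of the 22 tested collagen genes and each symbol 1 library, with FPKM on a log axis, color for the group and shape for the replicate. The rows are sorted by mean within each class, and Col1a2, Col4a1 and Col6a1 lead their classes at 37.7, 20.9 and 15.6 FPKM.

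Promoter sequence is shown for 3 of these genes, since they carry the contrasts described below: Col1a2 and Col3a1 encode chains of the 2 most abundant fibrillar collagens and gave different comparisons with WT, while Col4a1 and Col4a2 start beside each other and kept a steady ratio of levels. The sequences are RefSeq windows on GRCm38.p6 (the patch release of mm10), from 250 bases before to 50 after the annotated start, and 35 of the 43 collagens had such a window. The RefSeq start of Col1a2 lies downstream of its GENCODE start, so its window lies inside the gene as its coordinates are given below. In Col1a2 (chr6:4505368-4505667, plus strand) the capitals mark CCAAT on either strand, in Col3a1 (chr1:45311288-45311587, plus strand) TATAAA, and in Col4a2 (chr8:11312555-11312854, plus strand) the 78 bases that the window of Col4a1 on the opposite strand also covers.
Col1a2: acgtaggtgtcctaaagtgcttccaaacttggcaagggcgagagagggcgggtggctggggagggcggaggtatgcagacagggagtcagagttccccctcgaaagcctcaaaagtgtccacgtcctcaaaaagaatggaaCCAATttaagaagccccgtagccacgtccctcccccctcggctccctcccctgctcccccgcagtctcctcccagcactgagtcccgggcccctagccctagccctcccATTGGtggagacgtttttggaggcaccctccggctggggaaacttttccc
Col3a1: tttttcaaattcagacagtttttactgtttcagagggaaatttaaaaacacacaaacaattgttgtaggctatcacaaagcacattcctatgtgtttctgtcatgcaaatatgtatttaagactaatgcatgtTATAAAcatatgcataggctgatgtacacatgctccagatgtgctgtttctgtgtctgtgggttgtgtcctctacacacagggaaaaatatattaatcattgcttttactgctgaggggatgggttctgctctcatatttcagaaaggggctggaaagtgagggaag
Col4a2: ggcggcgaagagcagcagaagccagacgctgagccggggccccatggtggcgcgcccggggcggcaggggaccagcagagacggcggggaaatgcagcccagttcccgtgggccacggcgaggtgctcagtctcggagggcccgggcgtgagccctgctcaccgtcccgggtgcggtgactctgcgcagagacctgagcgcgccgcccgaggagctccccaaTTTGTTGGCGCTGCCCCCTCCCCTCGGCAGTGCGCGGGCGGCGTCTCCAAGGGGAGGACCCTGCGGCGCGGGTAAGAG
Over the 38 collagen windows, CCAAT or its reverse complement ATTGG occurred in 34.2%, against 37.4% of all 32851 windows of the same length, and TATAAA or TTTATA in 13.2% against 13.6%. The letters GGGCGG or CCGCCC, the core of a GC box, occurred in 60.5% of the collagen windows against 35.7% of all windows. Both strands were searched, matches of different motifs may overlap, and a match is a description of sequence only.

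The first comparison sets the collagen transcripts of both NrasQ61K groups against those of WT. By the backgrounds given above, these groups differ from WT in the oncogene and in strain background (crossed FVB/NJ against FVB/NJ). Whether the WT mice were instead littermates, as the paper describes its controls, cannot be settled here. In every comparison with WT the oncogene and any difference in background cannot be told apart. Over both NrasQ61K groups against WT, 0 of the 22 tested collagens passed the test (limma, adjusted p of at most 0.05), where 0.398% of all genes tested did. At an unadjusted p under 0.05, 4 collagens were higher, Col1a1, Col1a2, Col11a2 and Col10a1, against 6.52% of all genes, and 2 were lower, Col6a5 and Col12a1, against 15.2% of all genes. Of these, Col11a2 and Col10a1 passed the filter only through NrasQ61K libraries, where they were high, so their place among the higher genes is no support. Col6a5 reached 1 FPKM in every WT library and otherwise only in Tyr-NrasQ61K replicate 3, so it passed the filter only with WT. The log2 fold change was above 0 in 16 of the 22, compared with 36.5% of all genes. By class, 6 of 8 fibrillar, 4 of 4 basement membrane and 6 of 10 other collagens were above 0, with medians of 0.30, 0.40 and 0.06. These medians moved with the processing: once values were adjusted for base composition and transcript length they were 0.0196, 0.0164 and -0.231, where the median of all genes was -0.22. Collagens are rich in GC (median 56.0% in the tested members, against 49.5% in tested protein-coding genes) and long (median transcript 6084 bases, against 3366).

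**Figure D2:**
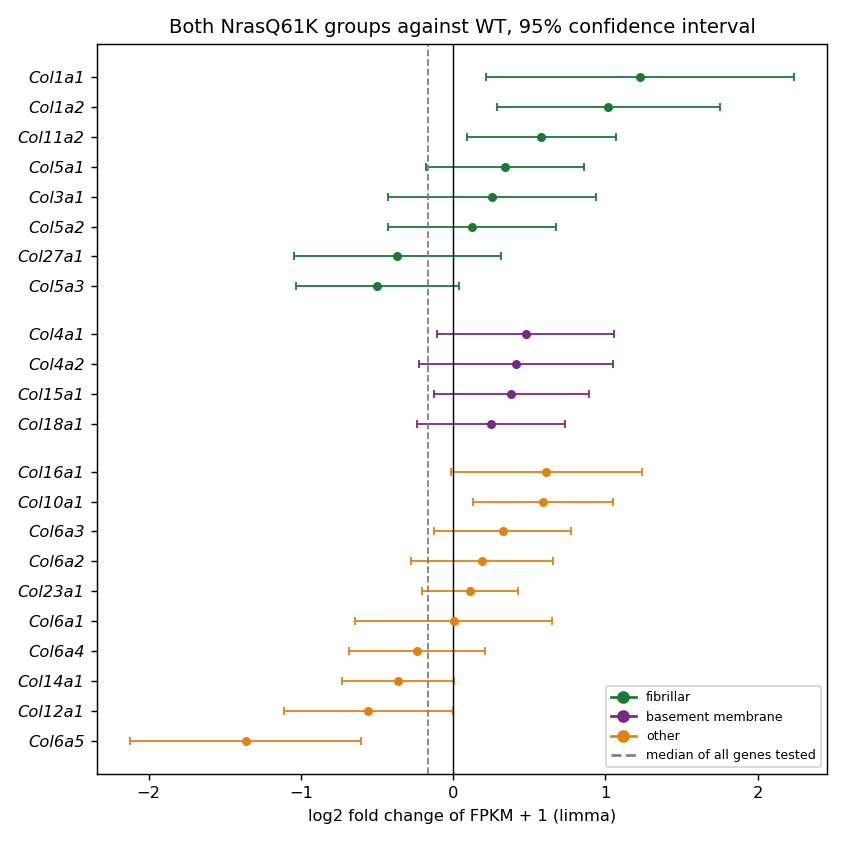
Points are the log2 fold changes of FPKM + 1 from limma in both NrasQ61K groups against WT, bars the 95% confidence intervals, and the dashed line the median of all genes tested (-0.16). Col1a1 (1.23), Col1a2 (1.02) and Col6a5 (-1.36) lie farthest from 0, and 0 of the 22 passed at an adjusted p of at most 0.05.

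Among the fibrillar collagens, the 2 chains of type I collagen, the main fibril former of the body, were higher in every NrasQ61K library than in any WT library. Col1a1, the alpha 1 chain (chr11:94936224-94953042, mm10, plus strand), had 12.5, 28.9 and 18.8 FPKM in MHCII-KO libraries and 12.9, 42.95 and 12.9 FPKM in Tyr-NrasQ61K libraries, against 11.1, 5.17 and 7.57 FPKM in WT libraries. The groups did not overlap, but the lowest MHCII-KO library was close to the highest WT library, and the 2 highest libraries were the pair that stood apart. The log2 fold change over both NrasQ61K groups was 1.23 (95% confidence interval 0.22 to 2.24, limma adjusted p = 0.205), and 0.81 without that pair (limma adjusted p = 0.275).
Col1a2, the alpha 2 chain (chr6:4504814-4541544, plus strand), had 32.7, 52.9 and 38.4 FPKM in MHCII-KO libraries and 37.5, 70.1 and 41.0 FPKM in Tyr-NrasQ61K libraries, against 27.1, 13.3 and 26.1 FPKM in WT libraries. Its libraries were ordered much as those of Col1a1, with the same pair highest and WT replicate 2 lowest. The log2 fold change was 1.02 (95% confidence interval 0.29 to 1.75, limma adjusted p = 0.191), and 0.79 without the pair. With values adjusted for base composition and transcript length, neither type I chain was called over both groups (2.44% of all genes called). Adding a replicate block left both uncalled, where 27.4% of all genes were called. Array weights called both as higher, along with 45.5% of all genes. Col1a1 and Col1a2 were the 2 of 22 collagens whose NrasQ61K libraries all lay above the WT libraries, where 4.52% of all genes did, and 0 lay all below, where 8.44% did. Since these are bulk libraries, a difference in the number of cells of a type and one in the RNA per cell cannot be told apart.
With each group set against the same WT libraries, the log2 fold change of Col1a1 was 1.21 in MHCII-KO and 1.24 in Tyr-NrasQ61K libraries, and that of Col1a2 was 0.91 in MHCII-KO and 1.13 in Tyr-NrasQ61K libraries (limma adjusted p from 0.277 to 0.329). Without the pair that stood apart, Col1a1 was at 0.92 in MHCII-KO and 0.69 in Tyr-NrasQ61K libraries.

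**Figure D3:**
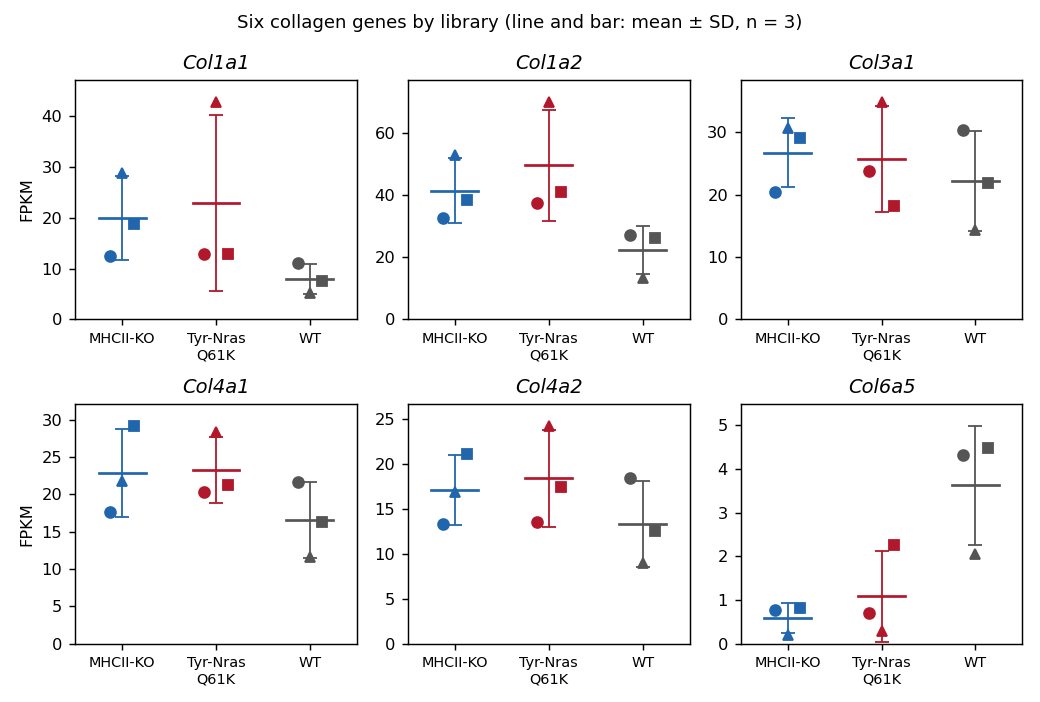
FPKM of 6 collagen genes in each library from a zero baseline, with a line at the group mean and a bar for the SD (n = 3), and shapes for replicates 1 (circle), 2 (triangle) and 3 (square). Col1a1 and Col1a2 lie above WT in all 6 NrasQ61K libraries, with Tyr-NrasQ61K replicate 2 at 42.95 and 70.1 FPKM, whereas Col3a1, Col4a1 and Col4a2 overlap between groups.

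Col3a1, the single chain of type III collagen, which makes up much of the reticular fiber, differed less between groups in mean level. It had 20.5, 30.6 and 29.1 FPKM in MHCII-KO libraries and 23.8, 34.9 and 18.3 FPKM in Tyr-NrasQ61K libraries, against 30.3, 14.4 and 21.9 FPKM in WT libraries. All 3 groups overlapped, and the log2 fold change over both NrasQ61K groups was 0.26 (95% confidence interval -0.43 to 0.94, limma adjusted p = 0.605), turning to -0.0101 without WT replicate 2.
The 2 collagens were also compared within each library. The ratio of Col3a1 to Col1a1 FPKM was 1.64, 1.06 and 1.55 in MHCII-KO libraries and 1.85, 0.813 and 1.42 in Tyr-NrasQ61K libraries, against 2.73, 2.79 and 2.89 in WT libraries. WT libraries were tightly grouped, WT replicate 2 included, and every NrasQ61K library lay below them. The log2 difference was -1.07 (exact permutation test, two-sided, p = 0.0238, the smallest that 6 against 3 libraries allow, and 0.0952 when adjusted over the 4 chain ratios compared), lower in 6 of 6 NrasQ61K libraries. With 3 against 3 libraries the smallest possible p is 0.10, which each NrasQ61K group reached against WT (exact permutation test, log2 differences of -1.01 for MHCII-KO and -1.12 for Tyr-NrasQ61K). Without the pair that stood apart the pooled difference was -0.80, and it was -0.77 when values were first adjusted for base composition and transcript length, a step chosen after seeing the data (Col1a1 transcripts hold 58.9% GC, those of Col3a1 52.5%).
The ratio of Col1a1 to Col1a2, whose protein chains join 2 to 1 in type I collagen, overlapped between groups, at 0.382 to 0.545 in MHCII-KO, 0.314 to 0.613 in Tyr-NrasQ61K and 0.290 to 0.409 in WT libraries (exact permutation test, n = 6 and 3, p = 0.333 over both NrasQ61K groups). So in every library Col1a2 had a higher FPKM than Col1a1, a comparison between genes that is not adjusted for base composition.

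**Figure D4:**
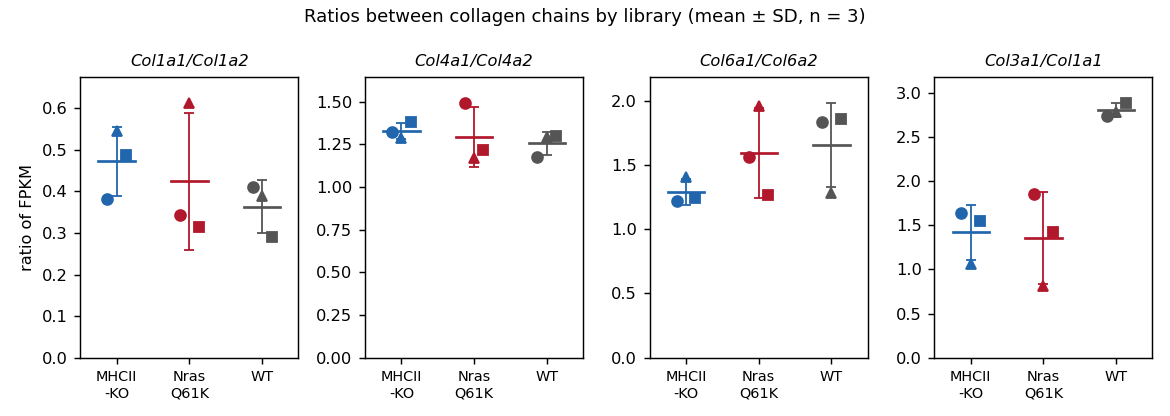
Ratios of FPKM between pairs of collagen chains in each library, with group means and SD (n = 3) and shapes for replicates 1 (circle), 2 (triangle) and 3 (square). The ratio of Col3a1 to Col1a1 is at most 1.85 in NrasQ61K libraries and 2.73 to 2.89 in WT libraries, while the remaining 3 ratios overlap between groups.

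Minor fibrillar chains were lower in level and mixed in direction. Col5a2, a chain of the type V collagen that helps set fibril diameter, had 3.22, 6.04 and 5.22 FPKM in MHCII-KO and 4.03, 5.60 and 5.66 FPKM in Tyr-NrasQ61K libraries, against 6.40, 3.17 and 4.09 FPKM in WT libraries. It overlapped fully between groups (log2 fold change 0.12, limma adjusted p = 0.772). Its gene lies tail to tail with Col3a1 on chromosome 1, 24614 bases away.
Col11a2, a chain of the type XI collagen best known from cartilage, had 0.601, 1.97 and 1.31 FPKM in MHCII-KO and 1.26, 2.07 and 1.40 FPKM in Tyr-NrasQ61K libraries, against 0.570, 0.488 and 0.732 FPKM in WT libraries. Tyr-NrasQ61K libraries all lay above WT, and 1 MHCII-KO library did not. Every WT library was under 1 FPKM, so Col11a2 was tested only through the groups where it was high. Its log2 fold change was 0.58 over both NrasQ61K groups and 0.68 in Tyr-NrasQ61K alone (limma adjusted p = 0.207 and 0.310), and was 0.103 over both groups with the GC and length correction. With single libraries left out it was 0.475 to 0.698 over both groups. Col5a1, Col5a3 and Col27a1 completed the tested fibrillar genes. Col5a3 and Col27a1 were lower in all 3 MHCII-KO libraries than in any WT library, where 23.4% of all genes were, so 2 of 8 fibrillar genes is near that share. Col5a3 reached 1 FPKM in every WT library and otherwise only in replicate 2 of MHCII-KO and of Tyr-NrasQ61K. It thus passed the filter only with WT, where it was high.

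The 4 tested basement membrane collagens had higher means in both NrasQ61K groups than in WT, and 0 of them passed the test. Their libraries overlapped WT, apart from those of Col15a1 in Tyr-NrasQ61K. Col4a1 and Col4a2 encode the 2 chains of the type IV network found in nearly every basement membrane. Col4a1 (chr8:11198423-11312826, minus strand) had 17.6, 21.8 and 29.2 FPKM in MHCII-KO libraries and 20.3, 28.4 and 21.3 FPKM in Tyr-NrasQ61K libraries, against 21.7, 11.6 and 16.4 FPKM in WT libraries. Col4a2 (chr8:11312805-11449287, plus strand) had 13.4, 16.9 and 21.1 FPKM in MHCII-KO libraries and 13.6, 24.3 and 17.5 FPKM in Tyr-NrasQ61K libraries, against 18.4, 8.98 and 12.6 FPKM in WT libraries. In both genes WT replicate 1 sat among the NrasQ61K libraries, so the groups overlapped. The log2 fold changes were 0.48 for Col4a1 (95% confidence interval -0.11 to 1.06, limma adjusted p = 0.288) and 0.41 for Col4a2 (limma adjusted p = 0.373), and they were 0.257 and 0.178 without WT replicate 2, and 0.0914 and -0.0386 with the GC and length correction.
The 2 genes stand head to head, their starts 21 bases apart and their annotated ends overlapping by 22 bases, and the strand setting of the counting was not given in the sources used here, so reads from the shared bases cannot be assigned. Across the 9 libraries their ratio stayed between 1.17 and 1.49, the narrowest span of the 4 chain ratios in log2 terms within these libraries. Over both NrasQ61K groups the log2 difference of that ratio was 0.06 (exact permutation test, n = 6 and 3, p = 0.50).
Col15a1, a proteoglycan collagen at the outer face of basement membranes, had 8.30, 11.7 and 10.3 FPKM in MHCII-KO libraries and 10.4, 9.69 and 17.5 FPKM in Tyr-NrasQ61K libraries, against 8.40, 7.02 and 9.45 FPKM in WT libraries. The Tyr-NrasQ61K libraries were all above WT, narrowly for replicate 2, and the MHCII-KO libraries overlapped both. Its log2 fold change was 0.51 in Tyr-NrasQ61K and 0.38 over both NrasQ61K groups (limma adjusted p = 0.3497 and 0.317), and 0.259 and 0.257 without Tyr-NrasQ61K replicate 3, its highest library. Col18a1, whose end fragment is endostatin, had 3.01, 4.55 and 3.504 FPKM in MHCII-KO libraries and 2.85, 3.79 and 4.51 FPKM in Tyr-NrasQ61K libraries, against 3.45, 1.89 and 3.70 FPKM in WT libraries, with a log2 fold change of 0.25 over both NrasQ61K groups (limma adjusted p = 0.480), and of 0.0246 without WT replicate 2.

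The most negative fold change among the tested collagens was in the other class. Col6a5, an alternative chain of type VI collagen that can stand in for Col6a3 (chr9:105856078-105960643, minus strand), had 0.768, 0.192 and 0.813 FPKM in MHCII-KO libraries and 0.697, 0.301 and 2.27 FPKM in Tyr-NrasQ61K libraries, against 4.33, 2.05 and 4.49 FPKM in WT libraries. All MHCII-KO libraries lay below WT, and so did the Tyr-NrasQ61K libraries apart from replicate 3, which was above WT replicate 2. The log2 fold change was -1.36 over both NrasQ61K groups (95% confidence interval -2.12 to -0.60, limma adjusted p = 0.138), -1.52 in MHCII-KO (limma adjusted p = 0.253) and -1.21 in Tyr-NrasQ61K libraries (limma adjusted p = 0.267). It missed the threshold in the fit used here and passed it in 6 alternatives for both groups together. These were quantile normalization (1.04% of all genes called), protein-coding genes only (2.29%) and the GC and length correction (2.44%). The others were the replicate block (16.1%), that correction with the block (27.4%) and array weights (45.5%), where calls were common among all genes. Without the pair that stood apart it was -1.12 (limma adjusted p = 0.25), and without Tyr-NrasQ61K replicate 3 -1.55 (limma adjusted p = 0.0794).
The neighbours of Col6a5 on chromosome 9 are its close relatives Col6a6 (27917 bases away) and Col6a4 (28810 bases away), transcribed in the same direction, and reads shared among the 3 could have been split by the counting. Col6a4 had 1.78, 1.58 and 1.75 FPKM in MHCII-KO and 1.95, 2.88 and 2.48 FPKM in Tyr-NrasQ61K libraries, against 3.43, 1.59 and 3.03 FPKM in WT libraries, and Col6a6 was below the filter.

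The common chains of type VI collagen, Col6a1, Col6a2 and Col6a3, overlapped WT in both NrasQ61K groups. Col6a1 had 12.1, 12.9 and 11.9 FPKM in MHCII-KO libraries and 17.8, 20.4 and 16.7 FPKM in Tyr-NrasQ61K libraries, against 23.0, 8.32 and 17.2 FPKM in WT libraries. MHCII-KO libraries were close together and below every Tyr-NrasQ61K library, while WT spanned both. Over both NrasQ61K groups its log2 fold change was 0.00 (95% confidence interval -0.64 to 0.65, limma adjusted p = 0.992), and -0.383 without WT replicate 2.
Col6a2 had 9.93, 9.19 and 9.57 FPKM in MHCII-KO libraries and 11.4, 10.4 and 13.2 FPKM in Tyr-NrasQ61K libraries, against 12.5, 6.49 and 9.22 FPKM in WT libraries. Col6a3 had 7.78, 10.7 and 10.6 FPKM in MHCII-KO libraries and 10.1, 10.4 and 8.61 FPKM in Tyr-NrasQ61K libraries, against 9.18, 5.49 and 8.27 FPKM in WT libraries. Their log2 fold changes over both NrasQ61K groups were 0.19 and 0.33 (limma adjusted p = 0.570 and 0.328), and -0.0263 and 0.132 without WT replicate 2. The ratio of Col6a1 to Col6a2 overlapped between groups (log2 difference -0.20 over both NrasQ61K groups, exact permutation test, n = 6 and 3, p = 0.381).

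Loss of MHC class II on the NrasQ61K background is the third comparison. In MHCII-KO against Tyr-NrasQ61K libraries 0 of 22 collagens passed (limma), where 0.0482% of all genes did, and 0 had an unadjusted p under 0.05, where 0.235% of all genes were higher and 1.28% lower by that rule. The 3 genes whose libraries did not overlap were Col6a1, Col6a2 and Col6a4, all type VI chains and all lower in MHCII-KO, where 3.07% of all genes were lower without overlap and 0.729% higher. These 3 were singled out after their values were seen. For Col6a1 the log2 fold change was -0.53 (95% confidence interval -1.28 to 0.22, limma adjusted p = 1.0). The median over the 22 collagens was -0.09, against -0.08 over all genes.
Against WT taken singly, 0 of 22 collagens passed in Tyr-NrasQ61K libraries (limma, 0.235% of all genes) and 0 in MHCII-KO libraries (0.145% of all genes). At an unadjusted p under 0.05, 4 were higher and 2 lower in Tyr-NrasQ61K, against 6.79% and 8.43% of all genes, and 2 were higher and 1 lower in MHCII-KO, against 3.57% and 11.5%. Without overlap of libraries, 5 collagens were higher and 0 lower in Tyr-NrasQ61K (8.18% and 10.5% of all genes), and 3 were higher and 3 lower in MHCII-KO (7.97% and 23.4% of all genes). These 2 comparisons share the WT libraries. Col11a2 and Col10a1 are counted among the higher genes in Tyr-NrasQ61K by both rules, with the limit of the filter given above. The same limit holds for Col6a5 and Col5a3 among the lower genes in MHCII-KO.

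Other members of this class given singly had smaller fold changes than Col6a5. Col16a1, a collagen that sits along fibrils, had 4.22, 3.55 and 4.37 FPKM in MHCII-KO libraries and 2.36, 7.22 and 3.58 FPKM in Tyr-NrasQ61K libraries, against 3.06, 1.78 and 2.16 FPKM in WT libraries. MHCII-KO libraries were all above WT, and Tyr-NrasQ61K replicate 1 was not (log2 fold change 0.61 over both NrasQ61K groups, limma adjusted p = 0.237). With single libraries left out the fold change was 0.433 to 0.763.
Col10a1, the type X chain best known from growth plate cartilage, had 1.91, 2.34 and 2.39 FPKM in MHCII-KO libraries and 2.22, 2.76 and 2.81 FPKM in Tyr-NrasQ61K libraries, against 0.793, 2.21 and 0.994 FPKM in WT libraries. Its NrasQ61K libraries were tight, and only WT replicate 2 reached their level. The log2 fold change was 0.59 (limma adjusted p = 0.200). Apart from WT replicate 2, no WT library reached 1 FPKM, so Col10a1 was tested only through the groups where it was high.
Col12a1, a fibril-associated chain, had 1.76, 1.99 and 1.90 FPKM in MHCII-KO libraries and 1.44, 0.967 and 2.37 FPKM in Tyr-NrasQ61K libraries, against 2.98, 1.84 and 4.54 FPKM in WT libraries. Its groups overlapped at WT replicate 2, with a log2 fold change of -0.56 (limma adjusted p = 0.231), and of -0.316 without WT replicate 3. The 6 tested collagens not given singly by fold change, Col5a1, Col5a3, Col27a1, Col6a4, Col14a1 and Col23a1, ranged from 0.643 to 5.47 FPKM and had log2 fold changes of -0.50 to 0.34 (limma adjusted p from 0.234 to 0.641).

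Summed over each class, fibrillar genes had 75.4, 128.5 and 100.3 FPKM in MHCII-KO and 85.5, 168.6 and 86.0 FPKM in Tyr-NrasQ61K libraries, against 86.7, 43.1 and 68.4 FPKM in WT libraries. Basement membrane genes had 42.9, 55.3 and 64.9 FPKM in MHCII-KO and 47.6, 66.6 and 62.0 FPKM in Tyr-NrasQ61K libraries, against 53.0, 30.6 and 43.4 FPKM in WT libraries. The other class had 46.4, 49.5 and 49.4 FPKM in MHCII-KO and 53.9, 63.9 and 60.4 FPKM in Tyr-NrasQ61K libraries, against 68.1, 35.8 and 57.5 FPKM in WT libraries. All 3 sums overlapped with WT.
As shares of the collagen total, which do not depend on library scaling, the other class took 24.1 ± 3.61% in MHCII-KO and 26.4 ± 4.36% in Tyr-NrasQ61K libraries, against 33.2 ± 0.689% in WT libraries (SD, n = 3 each). The shares were not adjusted for base composition or transcript length, and the median GC was 58.0% in fibrillar and 54.2% in other collagens. Every NrasQ61K library (21.2 to 29.0%) was below every WT library (32.7 to 34.0%). The shares add to 100%, and the summed FPKM of the other class averaged 48.4 in MHCII-KO and 59.4 in Tyr-NrasQ61K libraries, against 53.8 in WT libraries, whereas the fibrillar sum averaged 101.4 in MHCII-KO and 113.4 in Tyr-NrasQ61K libraries, against 66.1 in WT libraries. The fibrillar share was 49.2 ± 5.12% in MHCII-KO, 47.8 ± 7.76% in Tyr-NrasQ61K and 40.5 ± 1.19% in WT libraries (SD, n = 3 each), and it was 55.1 and 56.4% in the pair that stood apart. Without that pair it was 45.8 and 46.7% in MHCII-KO and 45.7 and 41.3% in Tyr-NrasQ61K libraries, against 41.7, 39.3 and 40.4% in WT libraries, so Tyr-NrasQ61K overlapped WT. The basement membrane share was 26.7% in MHCII-KO, 25.8% in Tyr-NrasQ61K and 26.3% in WT libraries.

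**Figure D5:**
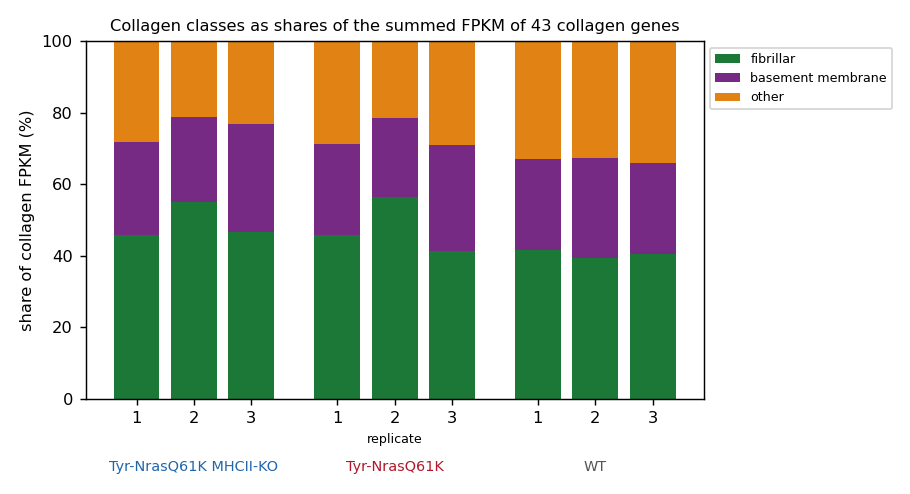
Bars are the share of the summed FPKM of 43 collagen genes held by each class in each library, and each bar adds to 100%. The other class holds 21.2 to 29.0% in NrasQ61K libraries and 32.7 to 34.0% in WT libraries.

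The 21 collagens below the filter stayed under 1.51 FPKM in every library, and 8 of them were listed at 0 in at least 1 library. They were 3 fibrillar genes (Col2a1, Col11a1, Col24a1), 4 type IV genes (Col4a3 to Col4a6) and 14 others, among them the type VIII and type IX chains. Col4a6, a chain of the type IV networks of a few epithelia and smooth muscle, had 0.1396, 0.0809 and 0.0904 FPKM in MHCII-KO and 0.154, 0.0978 and 0.193 FPKM in Tyr-NrasQ61K libraries, against 0.308, 0.537 and 0.373 FPKM in WT libraries. Col13a1, a transmembrane collagen, likewise lay below WT in all 6 NrasQ61K libraries, and Col22a1 lay above WT in all 6. Among the 13393 rows below the filter that were above 0 in at least 1 library, 3.21% lay lower and 2.05% higher without overlap. In a fit with no filter, which had 29980 genes, the adjusted p was 0.125 for Col4a6 and 0.170 for Col13a1 (limma). Col4a6 and Col4a5 stand head to head on the X chromosome, 1308 bases apart, and Col4a4 and Col4a3 stand 71 bases apart on chromosome 1.

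Genes that make, cut and bind collagen were counted beside the chains. The counts over both NrasQ61K groups in these lists and in the marker lists can be read against all genes tested, where an unadjusted p under 0.05 was found for 6.52% in the higher and for 15.2% in the lower direction, and 36.5% had a log2 fold change above 0. Of 24 tested genes for collagen synthesis, such as prolyl hydroxylases, the collagen chaperone Serpinh1 and lysyl oxidases, 0 passed over both NrasQ61K groups (limma; an unadjusted p under 0.05 in 2 higher and 2 lower genes), and their median log2 fold change was -0.07, close to that of all genes. Adamts14, 1 of the 2 higher synthesis genes, was under 1 FPKM in every WT library. It passed the filter only through NrasQ61K libraries, so its place among the higher genes is no support. Of 15 genes for breakdown and uptake, 1 passed: Mmp12, a macrophage metalloelastase, rose. It had 10.1, 9.998 and 13.4 FPKM in MHCII-KO and 18.0, 8.66 and 17.7 FPKM in Tyr-NrasQ61K libraries, against 2.78, 2.54 and 3.99 FPKM in WT libraries (log2 fold change 1.73, limma adjusted p = 0.0366). When each library was left out in turn, the call held in 1 of 9 fits, that without Tyr-NrasQ61K replicate 2 (limma adjusted p from 0.0109 to 0.255).
At an unadjusted p under 0.05 that list held 5 higher and 2 lower genes, 7 of the 15 were above 0, and its median was -0.06. Next by p among the higher genes were Mrc2, a receptor that takes up collagen fragments, at a log2 fold change of 0.73 (limma adjusted p = 0.10), and Ctsk, a protease that degrades collagen, at 1.33 (limma adjusted p = 0.131). The 2 lower genes were Mrc1, the macrophage mannose receptor, at -1.49 and Timp3, an inhibitor of metalloproteinases, at -0.99 (limma adjusted p = 0.185 and 0.188). Of 7 collagen receptor genes, 0 passed (limma; an unadjusted p under 0.05 in 0 higher and 2 lower genes), and the log2 fold change of all 7 was below 0 (median -0.46). Of 14 genes for matrix proteins bound to fibrils, 0 passed (limma; an unadjusted p under 0.05 in 0 higher and 2 lower genes). Postn, encoding periostin, had the lowest p, at 4.74, 2.56 and 3.03 FPKM in MHCII-KO and 4.67, 1.98 and 7.47 FPKM in Tyr-NrasQ61K libraries, against 21.5, 10.5 and 23.7 FPKM in WT libraries (log2 fold change -1.96, limma adjusted p = 0.0844). Of 11 genes for basement membrane partners, such as laminins and nidogens, 0 passed (limma; an unadjusted p under 0.05 in 0 higher and 4 lower genes), with a median of -0.19, near that of all genes.

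Markers of cells that make collagen or lie beside the node were summed in the same libraries. The 11 fibroblast and reticular cell markers summed to 110 to 138 FPKM in MHCII-KO and 100 to 167 FPKM in Tyr-NrasQ61K libraries, against 118 to 222 FPKM in WT libraries, and 0 passed (limma; an unadjusted p under 0.05 in 0 higher and 2 lower genes). The 9 endothelial markers summed to 63.0 to 98.1 FPKM in MHCII-KO and 52.8 to 116 FPKM in Tyr-NrasQ61K libraries, against 95.3 to 185 FPKM in WT libraries, and all 9 had a log2 fold change below 0. The 8 pericyte and smooth muscle markers, of which 6 were tested, summed to 36.3 to 48.0 FPKM in MHCII-KO and 27.1 to 66.5 FPKM in Tyr-NrasQ61K libraries, against 52.6 to 107 FPKM in WT libraries. Over both NrasQ61K groups, 4 of the 11 fibroblast, 0 of the 9 endothelial and 0 of the 6 tested pericyte markers had a log2 fold change above 0, and 0 of the endothelial and pericyte markers passed (limma; an unadjusted p under 0.05 in 3 and 4 lower genes, and 0 higher).
Adipocyte markers separated the groups: their sum was 60.5 to 172 FPKM in MHCII-KO and 40.7 to 189 FPKM in Tyr-NrasQ61K libraries, against 277 to 522 FPKM in WT libraries, all 8 were below 0 in log2 fold change, and Lep and Plin1 fell (-2.80 and -1.95, limma adjusted p = 0.0282 and 0.0445). Among melanocyte markers Dct rose (log2 fold change 1.90, limma adjusted p = 0.0362). When single libraries were left out in turn, the call of Plin1 held in 1 of 9 fits, that of Lep in 0 of the 6 fits in which it was tested and that of Dct in 2 of 9 (limma adjusted p from 0.0375 to 0.194, from 0.0524 to 0.0807 and from 0.0183 to 0.215). In the remaining fits Lep fell below the filter of 1 FPKM in 3 libraries. It thus only just entered the test, through the libraries where it was high, which limits its call. The part of fat around the node or of melanocytes in the collagen values was not tested.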

How the data were processed

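RNA from mouse lymph nodes was sequenced in 9 libraries, 3 per group. The authors deposited FPKM per gene and library, for which the sample labels name TopHat, Cufflinks, Cuffdiff and the build mm10. Their versions, the annotation and the strand setting were not given in the sources used here. The 18 rows that held several values per library were left out. Coordinates, GC content and transcript length came from GENCODE M21, and promoter windows from RefSeq on GRCm38.p6. Col26a1 was not analysed here.
Genes that reached 1 FPKM in 3 or more of the 9 libraries were transformed as log2(FPKM + 1), which understates the changes of low genes, and entered limma 3.58.1 (R 4.3.3), fitted with group means and a variance trend. P-values were Benjamini-Hochberg adjusted over all 16587 genes and called at 0.05 or less. Ratios between chains were compared by exact permutation tests over libraries (SciPy 1.17.1), and the fit was tested on simulated data. Alternatives were another pseudocount, no filter, scaled or quantile-normalized values, array weights, a replicate block, fits to the compared groups alone or to protein-coding genes, a GC and length correction, and leaving out libraries.
The collagens given singly were the 4 most abundant and the 3 with the smallest p in each class, with partners in ratios. The members, classes and lists were chosen with earlier results of these data known.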

Additional observations from a re-analysis of the deposited data

How the results depend on the processing

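Counts of collagens called were 0 in all 4 comparisons and stayed 0 in 66 of 79 alternative values. They were 7 (Tyr-NrasQ61K against WT), 11 (MHCII-KO against WT) and 10 (both NrasQ61K groups against WT) with array weights, where 30.6, 44.7 and 45.5% of all genes were called. With the replicate block the count was 1 in each of these 3 comparisons, Col6a5, where 5.39, 4.68 and 16.1% of all genes were called. It was 1 for both groups with quantile normalization (1.04% of all genes called) and with protein-coding genes only (2.29%). With the GC and length correction it was 2 in MHCII-KO (1.13%) and 2 in both groups (2.44%), each time Col5a3 and Col6a5, both lower. It was 4, 4 and 6 with that correction and the replicate block, where 16.5, 19.5 and 27.4% of all genes were called. Same-numbered libraries deviated from their group means with correlations from -0.04 to 0.33, and differently numbered ones with correlations from -0.27 to 0.16. These values do not settle whether the numbers pair the libraries, so fits with and without the block are given. Of the class medians for both groups, the fibrillar one was 0.0196, the basement membrane one 0.0164 and the other one -0.231 with the GC and length correction, with or without the block. Leaving out single libraries gave 0.0376 (without WT replicate 2) to 0.535 for fibrillar, 0.217 to 0.527 for basement membrane and -0.205 (without WT replicate 2) to 0.217 for other collagens. The pooled ratio of Col3a1 to Col1a1 stayed between -1.16 and -0.922 in log2 terms when single libraries were left out. Signs turned for some weak fold changes over both groups. Under the GC and length correction, with or without the block, Col5a2 was -0.0196, Col4a2 -0.0386, Col18a1 -0.188, Col6a1 -0.289 and Col6a2 -0.0741. Under array weights Col5a2 was -0.124, Col18a1 -0.073 and Col6a1 -0.345. Leaving out single libraries gave -0.0101 to 0.502 for Col3a1, -0.0642 to 0.35 for Col5a2, -0.383 to 0.299 for Col6a1 and -0.0263 to 0.4 for Col6a2, each lowest without WT replicate 2. Col6a1 was -0.0329 without Tyr-NrasQ61K replicate 2, -0.0116 without MHCII-KO replicate 2 and -0.0493 without both. The cause was not tested. Depth is not known, so no counting error can be given.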
